A study of Sus scrofa with 207 samples.

Results

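The 10 genes described here are antioxidant enzymes and targets of the transcription factor NRF2: NQO1, GCLC, GCLM, TXNRD1, PRDX5, GPX1, CAT, SOD1, SOD2 and HMOX1. They were chosen by name, and each was read from every tested probe set that the array annotation assigns to it alone, which gave 17 probe sets for 10 of 6765 genes with such a probe set, or 17 of 23935 tested probe sets. GCLC had 5 probe sets, TXNRD1 had 3, GCLM had 2 and the other 7 genes had 1 each. The samples were muscle of 207 commercial pigs of the crossbred Pix(DLxDE), collected when they were slaughtered at about 110 kg on average, with 1 Affymetrix Porcine Genome Array per animal and no treatment or control group. Labels gave 2 traits per animal. Drip loss, the weight that a piece of longissimus muscle loses while it hangs in the cold, averaged 5.37% ± 2.22 (SD, n = 207) and ran from 1.45% to 10.82%. Fat area over the same muscle averaged 15.0 cm2 ± 3.15 (SD, the 8 pigs without a value left out) and ran from 8.1 to 26.7 cm2. The labels used here give no age, sex, sire or slaughter day.

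NRF2 is held back in resting cells by KEAP1, which marks it for destruction; oxidants and electrophiles block that step, and NRF2 then switches on genes that make glutathione, recycle thioredoxin, reduce quinones and break down heme. The superoxide dismutases turn superoxide into hydrogen peroxide, which catalase, glutathione peroxidases and peroxiredoxins remove. In muscle, mitochondria and membrane oxidases are sources of superoxide, and oxidation after slaughter is known to affect proteins and lipids of meat.

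All values are the authors' deposited log2 expression values per probe set, with a floor at 4. Precision is limited by the number of arrays. Array medians lay between 5.96 and 6.18. All 20 measured muscle fibre markers, such as the creatine kinase gene CKM, had a mean above 10. By correlation with the rest, 24 low-correlation arrays stood apart, each with a median correlation more than 3 scaled median absolute deviations below that of all arrays (lowest 0.944, against a median of 0.978 over all arrays), and in these pigs drip loss was on average 4.195% (SD 1.55), whereas the rest had a mean of 5.53% (SD 2.25). Their values are marked in the plot of levels, and many results below are also given without them. Values given only over all arrays can rest in part on these 24. A further 13 arrays lacked the spike-in signal. The number in the title of each sample falls in 10 blocks of 100 with 10 to 35 pigs each, and in a lower series and a higher series, the higher one with 33 pigs; what these numbers stand for is not given in the sources used here. Different probe sets bind with different strength, so levels are not compared between genes.

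NQO1, the quinone reductase that is the classic readout of NRF2, lies on chromosome 6 of the RefSeq assembly Sscrofa11.1. Its lowest, median and highest log2 values were 7.86, 9.24 and 10.34, with an SD of 0.41, and 7.72% of all tested probe sets had a larger SD. From the 5th to the 95th percentile of pigs it spanned 2.54-fold. A few pigs were far from the rest, since 3 arrays were more than 1 log2 unit below the median and 1 was more than 1 above it.

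GCLC, the catalytic subunit of the ligase that commits cysteine and glutamate to glutathione, lies on chromosome 7. Its brightest probe set was among the steadiest on the array, with a lowest value of 8.77, a median of 9.29, a highest of 9.70 and an SD of 0.14, and 98.8% of tested probe sets had a larger SD. The remaining 4 probe sets of GCLC, numbered 2 to 5 by falling mean, were dimmer, with medians of 6.84, 5.34, 5.28 and 4.71, and probe set 5 was at the floor in 5 arrays. They did not follow the brightest one across pigs: Pearson's r with it lay between -0.03 and 0.14. Among themselves probe sets 2 and 4 ran together with r = 0.40 (permutation p = 1e-05, the smallest that 100000 permutations can give). Statements on GCLC below therefore name the probe set.

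GCLM, the modifier subunit that raises the efficiency of that ligase, lies on chromosome 4. Its brighter probe set had a lowest value of 6.43, a median of 7.5 and a highest of 8.69 (SD 0.37), and the dimmer one ran from 5.16 through a median of 5.65 to 6.01 (SD 0.17). The 2 probe sets of this gene moved apart, with r = -0.24 over 207 arrays (permutation p = 0.00052, adjusted over 14 within-gene pairs 0.0018).

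TXNRD1, the cytosolic thioredoxin reductase and a selenoenzyme, lies on chromosome 5. Its brightest probe set had a lowest value of 7.86, a median of 8.35 and a highest of 9.75 (SD 0.27), probe set 2 had 6.96, 7.70 and 9.15, and probe set 3 had 5.70, 6.42 and 7.84. The brightest and probe set 3 ran together across pigs (r = 0.80), while probe set 2 was unrelated to either (r = -0.01 and -0.04).

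PRDX5, a peroxiredoxin found in mitochondria, peroxisomes and cytosol, lies on chromosome 2; its values were 8.07 at the lowest, 8.85 at the median and 9.38 at the highest (SD 0.24). CAT, the peroxisomal catalase, is also on chromosome 2 and had 9.88, 10.75 and 11.93 (SD 0.34). SOD1, the copper and zinc superoxide dismutase of the cytosol, on chromosome 13, had 10.63, 11.50 and 11.88 (SD 0.19). These 3 genes spread no wider than 2.13-fold between the 5th and 95th percentile of pigs. SOD2, the manganese superoxide dismutase of the mitochondrial matrix, on chromosome 1, had 10.76, 11.56 and 12.17 (SD 0.25).

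GPX1, the main cytosolic glutathione peroxidase and a selenoenzyme, was the most variable of the 10 genes. Its values ran from 7.82 through a median of 11.14 to 12.90 with an SD of 0.79, and only 0.756% of all tested probe sets had a larger SD. A main body and 2 small sets of arrays were set apart at 1 log2 unit from the median. In 15 arrays (7.25% of 207) GPX1 lay more than 1 log2 unit below the median, between 7.82 and 9.94 with a median of 8.98. The lower limit was not a gap in the values: the highest of the 15, at 9.94, lay closer to the next array above, at 10.25, than to the next below, at 9.34. From 10.25, the main body of the arrays, all but 19, ran to 11.94 around a median of 11.18 (SD 0.45), which was 4.59-fold above the median of the 15. At the top, 4 arrays stood at 12.36 to 12.90. Of the 15 low arrays 2 were among the 24 that stood apart by correlation, and of the 4 high ones 3 were. The low arrays came from 7 of the 10 title number blocks and their pigs covered drip losses from 1.83% to 10.78% and fat areas from 10.0 to 19.9 cm2. The gene lies on chromosome 13.

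HMOX1, the inducible heme oxygenase that frees iron, carbon monoxide and biliverdin from heme, is not placed on a chromosome in the RefSeq table. It had the second widest spread of the set: the lowest value was 5.98, the median 7.33 and the highest 11.20, the SD was 0.65, and 1.46% of tested probe sets had a larger SD. In 17 arrays HMOX1 was more than 1 log2 unit above its median. One array at 11.20 stood far above the next at 9.51, and both belonged to the 24 that stood apart. Over those 24 arrays HMOX1 averaged 7.92 ± 0.97 (SD), against 7.30 ± 0.55 in all others. With the median correlation of an array with the others, HMOX1 had r = -0.47 (rho -0.31), and -0.26 without the 24. The brightest TXNRD1 probe set had -0.39 (rho -0.13), and -0.14 without them. GPX1 had -0.18, and the other genes had positive values, from 0.036 for CAT to 0.34 for SOD1.

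**Figure D1:**
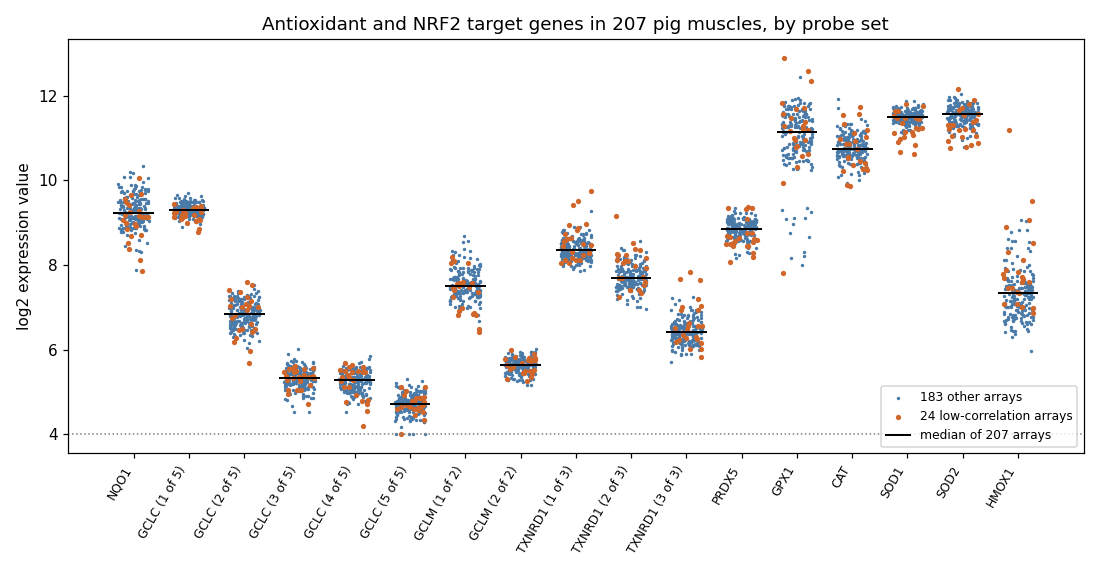
Log2 expression value (vertical axis) of each of the 17 probe sets of the 10 genes (horizontal axis), with 1 point per array, small blue points for most arrays, larger orange points for the 24 low-correlation arrays and a black bar at the median of 207 arrays; the dotted line is the floor at 4. GPX1 shows 15 arrays below the main body, HMOX1 a single array at 11.20, and the brightest GCLC probe set the tightest values, with an SD of 0.14.

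The first comparison asked whether any of the genes followed drip loss. Of the 17 probe sets 2 did, NQO1 and the brightest of GCLC, both higher in muscle that lost more water; 1.94% of all 23935 probe sets were called in that direction (limma, Benjamini-Hochberg adjusted p under 0.05 over all tested probe sets). Of the other 15 probe sets 0 were called. An unadjusted p under 0.05 was found for 4 of the 17 and for 4624 of all 23935, so the 2 shares are near each other. Over the 10 genes, with the brightest probe set of each, the median slope was 0.02 log2 units per SD of drip loss and 7 were positive, against a median of 0.0080 and 61.01% positive over all 6765 genes.

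NQO1 was 9.19, 9.18, 9.26 and 9.42 on average in 4 groups of pigs of about equal size, ordered from the lowest to the highest drip loss, with SDs of 0.44, 0.39, 0.39 and 0.37 (n = 52, 52, 51 and 52). These groups overlapped widely, and the mean of the highest one (7.22% to 10.82% drip loss) stood above the rest. The slope was 0.086 ± 0.027 (SE) log2 units per SD of drip loss, or 6.16% per 2.22 percentage points, with an adjusted p of 0.045 in limma. Drip loss accounted for 4.53% of the variance of NQO1 over the 207 pigs. Within blocks of title numbers taken singly, 7 of 10 slopes were positive, from -0.12 to 0.36.

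NQO1 also ran with markers of other cells in the muscle. With the mean of 11 measured fibroblast and matrix genes, such as DCN, it correlated at r = 0.32 (rho 0.22, adjusted permutation p = 0.00013 and 0.0086 over 140 relations), and at 0.20 without the 24 arrays that stood apart. This was not particular to NQO1. SOD1 gave r = 0.37 with the same mean (0.17 without these arrays), GCLM 0.20 (0.029), GCLC 0.19 (0.059) and CAT 0.18 (0.24). The remaining genes gave 0.11 to 0.15. That mean lay between 7.85 and 10.11 over the arrays, with 0 of the 11 genes at the floor on every array. For drip loss 0 of the 11 passed, where 3.96% of all genes were higher; 10 of 11 slopes were positive, with a median of 0.035 log2 units per SD. With the mean of 11 endothelial markers r was 0.19 (rho 0.14, adjusted permutation p = 0.023 and 0.10), and 0.20 without the 24 arrays; that mean lay between 6.74 and 7.78, with 0 of the 11 at the floor on every array. For drip loss 1 of these 11, ENG, was lower (slope -0.068, limma adjusted p = 0.047) and 0 higher, where 2.11% of all genes were lower. For fat area 0 passed, where 0.148% of all genes did. On that trait 1 of the 11 slopes was positive, with a median of -0.024, against 46.8% positive and a median of -0.0015 over all genes. The part of these cells in the slopes of NQO1 was not tested.

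For GCLC the means of the 4 groups of the brightest probe set were 9.28, 9.27, 9.30 and 9.37, with SDs of 0.13, 0.16, 0.13 and 0.13. The slope was small, 0.034 ± 0.010 (SE) log2 units or 2.42% per SD of drip loss (limma adjusted p = 0.027), and 9 of 10 blocks had a positive one. Its other 4 probe sets had slopes between 0.0020 and 0.032 with adjusted p-values from 0.31 to 0.97. So the relation of GCLC to drip loss rests on 1 of its 5 probe sets, which correlates at -0.33 with how much the 3' signal of control transcripts exceeds their 5' signal, a measure of RNA integrity. With that measure as a covariate the slope was 0.029 and the adjusted p 0.079.

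The calls for NQO1 and GCLC ended in several refits. With the title number blocks as a covariate the slope was 0.10 for NQO1 (adjusted p = 0.053) and 0.034 for GCLC (0.082), and without the 24 arrays that stood apart they were 0.074 (0.17) and 0.027 (0.16). With fat area as a covariate NQO1 had 0.082 (0.064).

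PRDX5 and SOD1 came next to them. PRDX5 had means over the 4 groups of 8.80, 8.77, 8.89 and 8.90 and a slope of 0.049 ± 0.016 (SE), with an adjusted p of 0.056 over all probe sets and 0.043 when the adjustment ran over 1 probe set per gene, where 7.63% of the 6765 genes were called. SOD1 had means over the 4 groups of 11.42, 11.46, 11.49 and 11.55 and a slope of 0.036 ± 0.013 (SE, adjusted p = 0.085).

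Both genes ran with mitochondrial transcripts. The mean of 22 measured respiratory chain genes, such as NDUFA2, correlated with PRDX5 at r = 0.59 (Spearman's rho 0.55) and with SOD1 at r = 0.50 (rho 0.43), each with an adjusted permutation p of 0.00013 over 140 relations for r. Without the 24 arrays that stood apart r was 0.50 and 0.40. This was not particular to these 2 genes. SOD2, with a drip loss slope of 0.0046, gave r = 0.35 (0.34 without these arrays). GCLM gave 0.27 (0.22), GCLC 0.21 (0.053), NQO1 0.20 (0.12) and CAT 0.10 (0.12), by the brightest probe sets. HMOX1, TXNRD1 and GPX1 gave -0.30 (-0.12), -0.25 (-0.063) and -0.059 (-0.022). With drip loss, 10 of the 22 respiratory chain genes were higher and 0 lower, against 3.96% higher and 2.11% lower among all 6765 genes. With the respiratory chain mean as a covariate, 0 of the 17 probe sets were called for drip loss. Of all probe sets 0.171% were called in that fit, against 4.61% without the covariate, so a count of 0 is near the share. NQO1 kept a slope of 0.070 there (limma adjusted p = 0.40) and the brightest GCLC probe set one of 0.028 (0.31). In whole muscle, fewer cells or mitochondria of a kind and less RNA of each cannot be told apart.

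HMOX1 and TXNRD1 had negative slopes that did not pass the test, of -0.074 ± 0.044 (SE, adjusted p = 0.36) and -0.032 ± 0.019 (SE, adjusted p = 0.35, brightest probe set). The brighter GCLM probe set had 0.035 ± 0.026 (SE, adjusted p = 0.48). CAT, SOD2 and GPX1 had slopes of -0.0017, 0.0046 and 0.012, with 95% confidence intervals of -0.048 to 0.044, -0.030 to 0.039 and -0.095 to 0.12.

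**Figure D2:**
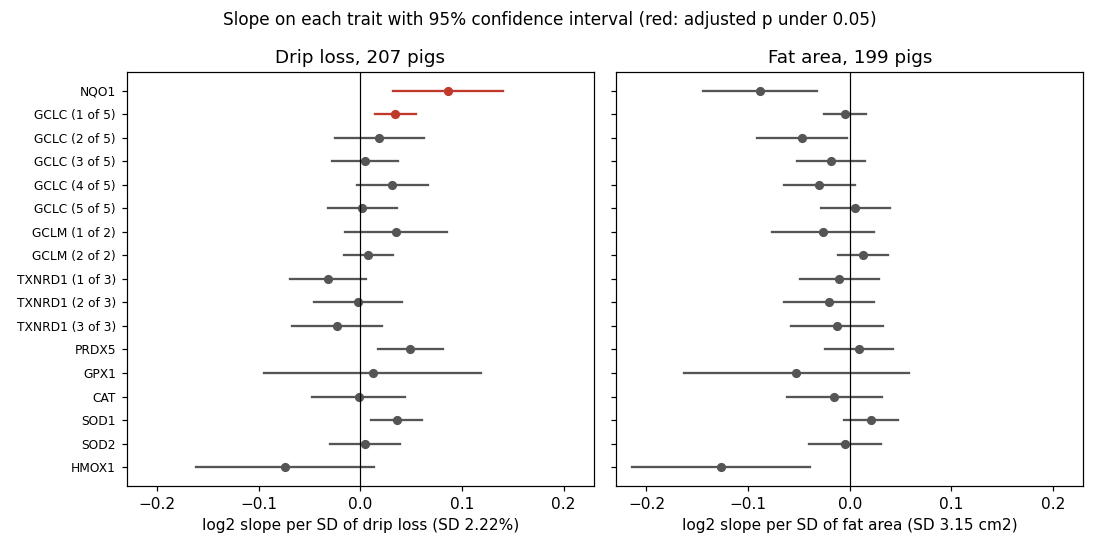
Slope of each probe set in log2 units per SD of drip loss (left, 207 pigs) and of fat area (right, the pigs with a value), as a point with its 95% confidence interval; red marks a limma adjusted p under 0.05. NQO1 is the probe set whose intervals lie to opposite sides of 0 in the 2 panels, at 0.086 and -0.088.

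The second comparison asked the same of fat area. Of the 17 probe sets 0 passed in limma, where 0.121% of all 23935 passed. An unadjusted p under 0.05 was found for 3 of the 17 and for 1692 of all 23935. Under any of the 17 alternatives 0 passed. NQO1 averaged 9.41, 9.23, 9.26 and 9.14 in 4 groups of pigs ordered from the lowest to the highest fat area, with SDs of 0.34, 0.44, 0.40 and 0.43 (n = 52, 52, 45 and 50). Its slope was -0.088 ± 0.028 (SE) log2 units per 3.15 cm2, with an unadjusted p of 0.0021 and an adjusted p of 0.36. HMOX1 averaged 7.52, 7.55, 7.25 and 7.17 over the same groups and had a slope of -0.13 ± 0.045 (SE, unadjusted p = 0.0050, adjusted p = 0.43). The third was GCLC probe set 2, at -0.047 ± 0.023 (SE, unadjusted p = 0.040, adjusted p = 0.68). The median slope of the 10 genes was -0.013 and 2 were positive, against 46.8% positive over all genes.

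With both traits in 1 fit, the slope of NQO1 on drip loss exceeded its slope on fat area by 0.16 ± 0.038 (SE) log2 units per SD (limma adjusted p = 0.026, 95% confidence interval 0.088 to 0.24). It was the only one of the 17 probe sets called for this difference, where 0.130% of all probe sets were called in that direction. In 13 refits the difference stayed positive, between 0.14 and 0.18, and passed in 10 of them. It missed in the higher number series alone (25 pigs, adjusted p = 0.80), with 5 principal components as covariates (0.079) and with the respiratory chain mean as a covariate (0.12). Without the 24 arrays that stood apart it was 0.16 (adjusted p = 0.032), and with title number blocks 0.18 (0.023).

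Split at the median of each trait (5.26% and 14.5 cm2), the pigs with the higher drip loss and the smaller fat area had the highest NQO1, 9.44 ± 0.36 (SD, n = 51). The means were 9.23 ± 0.40 (n = 47) with both traits high, 9.19 ± 0.40 (n = 53) with both low and 9.17 ± 0.43 (n = 48) with low drip loss and large fat area. These means describe the fit above and were not tested apart.

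**Figure D3:**
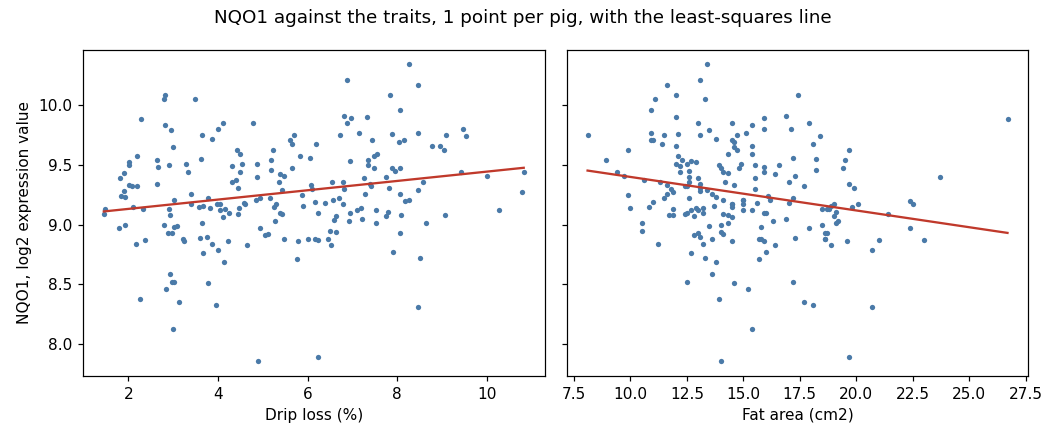
NQO1 log2 expression value (vertical axis) against drip loss in percent (left, 207 pigs) and fat area in cm2 (right, the pigs with a value), 1 point per pig, with the least-squares line in red. The line goes up with drip loss and down with fat area, and the points spread widely around both, from 7.86 to 10.34.

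The other genes of the same defence system were counted from lists of NRF2 regulators and of glutathione, thioredoxin, peroxide, NADPH, heme and iron, carbonyl, selenium and oxidant producing genes. For drip loss 7 of the genes measured in these lists were higher, or 6.09%, and 0 were lower, against 3.96% higher and 2.11% lower among all 6765 genes. For fat area 0 of them passed, against 0.148% of all genes. The median slope of these genes on drip loss was 0.016. The 7 calls were lost, leaving 0, with the title number blocks or the respiratory chain mean as a covariate and without the 24 arrays that stood apart. In these settings 0.623%, 0.171% and 0.831% of all probe sets were called, so counts of 0 are near those shares.

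NFE2L2, which encodes NRF2, and KEAP1 were not analysed here, since no tested probe set carried either symbol alone. Of 16 listed regulators 3 were measured. PARK7, whose product DJ-1 protects cells from oxidants, was higher with drip loss by 0.056 ± 0.013 (SE) log2 units per SD (limma adjusted p = 0.0070). PGAM5, a mitochondrial phosphatase that binds KEAP1, was higher by 0.044 ± 0.013 (SE, adjusted p = 0.032). SQSTM1, the autophagy adaptor that competes for KEAP1, had a slope of 0.0022 (adjusted p = 0.96).

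Among 17 measured genes of glutathione synthesis, recycling and transfer 2 were higher with drip loss, where 3.96% of all 6765 genes were. These 2 were the glutathione transferases GSTZ1, at 0.059 ± 0.015 (SE, limma adjusted p = 0.012), and GSTO1, at 0.069 ± 0.020 (SE, adjusted p = 0.022). Of 22 thioredoxin, peroxiredoxin and glutaredoxin genes 1 was higher, TXNL4A, at 0.048 ± 0.014 (SE, adjusted p = 0.032); its product is a thioredoxin-like part of the spliceosome rather than a known reductase. Of 12 selenoprotein genes 1 was higher, SELENOH, at 0.044 ± 0.014 (SE, adjusted p = 0.048), which encodes a nuclear selenoprotein. Of 13 oxidant producing enzymes 1 was higher, MAOB, the mitochondrial monoamine oxidase that releases hydrogen peroxide, at 0.11 ± 0.030 (SE, limma adjusted p = 0.017). Counts of 1 in lists of 22, 12 and 13 genes are near the share of 3.96% over all genes.

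The 4 lists with 0 calls each had 10 other superoxide and peroxide removing enzymes, 11 NADPH supplying enzymes, 8 heme, iron and metallothionein genes and 19 quinone and carbonyl enzymes. Their smallest p-values belonged to GPX5 and GPX7 (adjusted p = 0.18 for drip loss and 0.62 for fat area), to ME1 and IDH2 (0.68 for fat area and 0.34 for drip loss), to BLVRA and FTL (0.24 and 0.30 for drip loss), and to AKR1C1 and FMO1 (0.14 for fat area and 0.10 for drip loss). AKR1C1, an aldo-keto reductase, had a slope of 0.11 ± 0.029 (SE) on fat area. Among all genes 3.96% were higher and 2.11% lower with drip loss, and 0.148% passed for fat area. Counts of 0 in lists of 8 to 19 genes are near those shares.

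The third question was whether the genes varied together across pigs. For the most part they did not. Over the 36 pairs of the 9 genes other than GPX1 the median r was 0.089, against 0.0059 over all 22879230 pairs of genes; 5 pairs, or 13.9%, had r above 0.3, where 7.44% of all pairs did, and 0 had r below -0.3, where 3.83% did. Without the 24 arrays that stood apart 2 of the 36 pairs were above 0.3, and 5.33% of all pairs. Of the 36 pairs 14 had a permutation p under 0.05 adjusted over the 45 pairs computed, and 12 of these were positive. How many of all pairs of genes would pass this test was not computed, so the 14 have no share to be read against.

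With each gene read from its brightest probe set, the highest r was that of HMOX1 with TXNRD1, 0.55 (rho 0.42). Both had the smallest permutation p that could be reached, 1e-05, with adjusted p-values of 9e-05 and 0.00022. It was 0.44 without the 2 pigs farthest from the median of HMOX1, 0.44 without the 24 arrays that stood apart and 0.57 within title number blocks. PRDX5 and SOD1 followed with r = 0.46 (rho 0.41, 0.34 without the 24 arrays). SOD1 with SOD2 had 0.36, GCLM with SOD1 0.35 and TXNRD1 with SOD2 0.34, and without the 24 arrays these were 0.16, 0.26 and 0.28. The lowest r was that of PRDX5 with HMOX1, -0.20 (rho -0.22, permutation p = 0.0035 and 0.0013, adjusted p = 0.014 and 0.0086).

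NQO1, GCLC, GCLM, TXNRD1 and HMOX1 are textbook targets of NRF2. Of the 10 pairs these 5 genes form 1 passed the test, HMOX1 with TXNRD1. It was also the only one with r above 0.3, where 7.44% of all pairs of genes were. In the other 9 pairs r lay between -0.099 and 0.13, with adjusted p-values from 0.16 to 0.84. NQO1 with GCLC gave r = 0.11, and 0.035 without the 24 arrays. GCLC and GCLM, which encode the subunits of 1 enzyme, gave 0.13 by their brightest probe sets, and 0.014 without the 24 arrays. GPX1, with its low and high sets of arrays, was related to the other genes within its main body of arrays, where r lay between -0.12 with CAT and 0.24 with HMOX1.

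**Figure D4:**
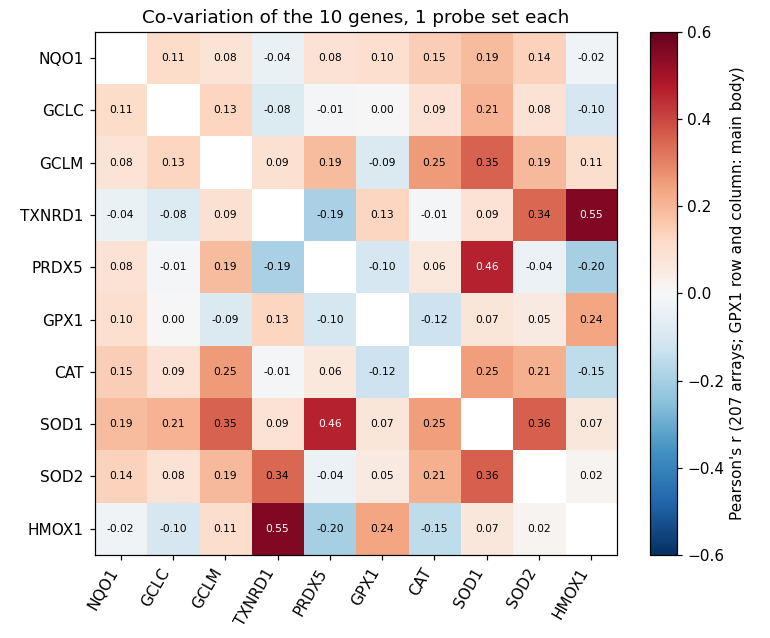
Pearson's r between each 2 of the 10 genes, each by its brightest probe set, over 207 arrays (over the main body of arrays for the GPX1 row and column); the colour scale runs from -0.6 in blue to 0.6 in red. HMOX1 with TXNRD1 (0.55) and PRDX5 with SOD1 (0.46) are the darkest squares, and 20 of the 45 pairs have an absolute r below 0.1 over all arrays.

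HMOX1 and the brightest TXNRD1 probe set both ran with the mean of 12 measured macrophage and monocyte markers. That mean lay between 6.30 and 9.14 over the arrays, and 0 of the 12 were at the floor on every array. With HMOX1 it correlated at r = 0.55 (rho 0.38), and at 0.40 without its 2 farthest arrays and 0.39 without the 24 arrays that stood apart. With TXNRD1 it gave 0.45 (rho 0.29), and 0.28 and 0.32 in the same checks. TXNRD1 probe set 2, unrelated to the brightest one (r = -0.01), was not compared with these markers. SOD1 and GPX1 ran with the same mean more weakly, at r = 0.31 (rho 0.24) and 0.25 (rho 0.21), and at 0.20 and 0.13 without the 24 arrays. Of the 12 markers 11 correlated positively with HMOX1, 9 of them above 0.3, from -0.14 for MARCO to 0.64 for TYROBP, a signalling adaptor of myeloid cells. CD163, the hemoglobin scavenger receptor of tissue macrophages, gave 0.56.

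The array with the highest HMOX1 (11.20) also had the highest TXNRD1 (9.75), GPX1 (12.90) and macrophage mean (9.14). The array with the second highest HMOX1 (9.51) ranked second in each of these as well, at 9.52, 12.59 and 8.84. The third highest macrophage mean was 7.89. Without both arrays 7 of the 12 markers still correlated with HMOX1 above 0.3. How far cells of this kind account for the level of HMOX1 was not tested. For drip loss 0 of the 12 markers passed in either direction, where 3.96% of all genes were higher and 2.11% lower, and for fat area 0, where 0.148% passed; counts of 0 in 12 are near those shares.

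**Figure D5:**
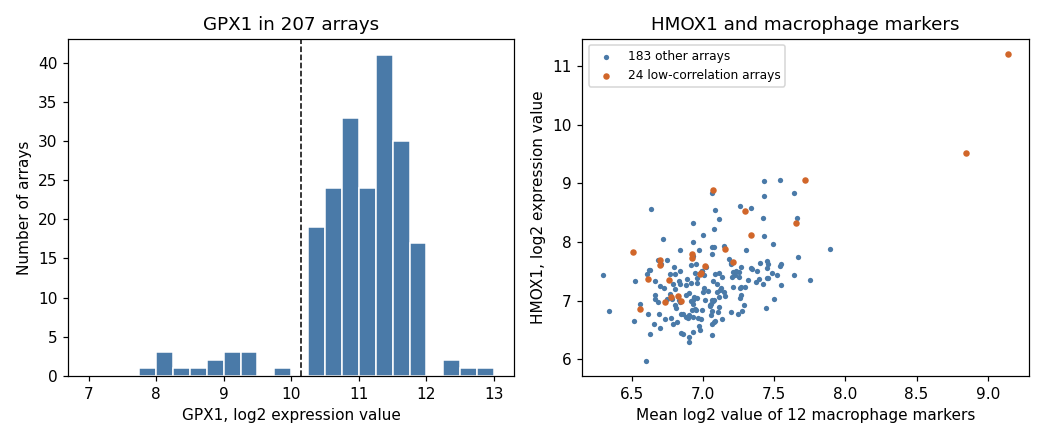
Left, number of arrays by GPX1 log2 expression value in bins of equal width, with a dashed line 1 log2 unit below the median; right, HMOX1 log2 expression value against the mean log2 value of 12 macrophage markers, 1 point per array, with the 24 low-correlation arrays in orange. On the left 15 arrays lie below the line and 4 stand above the main body; on the right 2 orange points stand alone at HMOX1 values of 11.20 and 9.51.

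For each gene the 3 most similar patterns, and the most opposite one, were taken over 6209 single-symbol probe sets brighter than the median, by Pearson's r over the 207 arrays. As extremes of many values they are a description. Leaving out the 24 arrays that stood apart changed several of them. PRDX5 with PRRC2C went from -0.58 to -0.42, TXNRD1 with ARFGAP2 from -0.60 to -0.43 and GCLC with LOC102164863 from 0.51 to 0.39. NQO1 ran with EPDR1 (r = 0.50), with BPGM, the bisphosphoglycerate mutase (0.50), and with FBP2, the fructose bisphosphatase of muscle (0.47), and most against GPX3, the secreted glutathione peroxidase (-0.43). Without the 24 arrays these were 0.42, 0.45, 0.48 and -0.43. GCLC was nearest to LOC102164863 and C14H12orf43 (both 0.51) and to FGFR1, a growth factor receptor (0.50), and farthest from CIC (-0.43). GCLM was nearest to BCAR3 (0.54), LIAS, the lipoic acid synthase (0.47), and MRPL19, of the mitochondrial ribosome (0.46), and farthest from HSF1, the heat shock factor (-0.38).

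TXNRD1 was nearest to HSP90B1 and HSPA5, chaperones of the endoplasmic reticulum (0.72 and 0.69), and to CLTC, the clathrin heavy chain (0.69), and farthest from ARFGAP2 (-0.60). HMOX1 was nearest to the tumour necrosis factor receptor gene TNFRSF1B (0.76), the metalloproteinase inhibitor gene TIMP1 (0.76) and LITAF (0.75), and these stayed at 0.73, 0.71 and 0.70 without the 24 arrays; MSS51, a muscle gene, was lowest (-0.49). PRDX5 was nearest to C2H19orf70 (0.74), NAA38 (0.70) and CHCHD1 (0.69), and farthest from PRRC2C (-0.58).

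SOD1 was nearest to UFC1 (0.74), the proteasome gene PSMA2 (0.73) and RAN, the GTPase of nuclear transport (0.73), and farthest from KIAA1551 (-0.53); without the 24 arrays these were 0.56, 0.54, 0.52 and -0.32. SOD2 was nearest to PLEKHB2, DNM1L, the mitochondrial fission enzyme, and the chaperone gene HSP90AA1 (each 0.67), and farthest from PRKCSH (-0.50). CAT was nearest to the ubiquitin ligase partner UBE2B (0.60) and to CDKN1B and CCNG2, inhibitors of the cell cycle (both 0.58), and farthest from SREBF2, an activator of sterol synthesis genes (-0.57). For GPX1 the rule named ERGIC1, RHOA, MAPKAPK3 and, as the most opposite, CCDC12. Within the main body of arrays their r with GPX1 was -0.0012, 0.30, 0.31 and -0.41, and within the 15 low arrays it was 0.15, 0.56, 0.36 and -0.12.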

How the data were processed

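Per the labels' protocols, biotinylated cRNA was made from total RNA (TRI Reagent, DNase). The submitters' processing notes name GCOS 1.1.1 and PLIER as the tools the authors used; the deposited values are log2 expression values with a floor at 4 that holds 1.45% of them, and scaling between arrays is not given in the sources used here. Control probe sets were left out of 24123 rows and 23935 tested; 10069 had exactly 1 gene symbol. The probe set with the highest mean stood for each of 6765 genes. All 10 genes matched the RefSeq table by gene number.

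Regressions of each probe set took the trait in units of its SD (limma 3.58.1, R 4.3.3, lmFit and eBayes, two-sided, Benjamini-Hochberg over all 23935 probe sets, threshold 0.05); a fit with both traits tested the difference between the slopes. Correlations used 100000 two-sided permutations (numpy 2.4.6). Alternatives changed 1 choice at a time, except that title number blocks were also combined with leaving out the low-correlation arrays. Simulated data for drip loss held 23935 probe sets with independent noise, of which 50 were changed at each of 4 slopes. Of the changed ones 24% were recovered at 0.05 log2 units per SD, 88% at 0.1, 96% at 0.2 and 100% at 0.4. Among the unchanged ones there were 9 false calls. In the real data probe sets vary together and more are called, so recovery there can differ.

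The genes, lists and tests were chosen with earlier results of these data known. Named were all probe sets of the 10 genes, list genes that passed or else the 2 with the smallest p, and the nearest and most opposite genes. No 2 arrays were identical (highest correlation 0.990).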

Additional observations from a re-analysis of the deposited data

How the results depend on the processing

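The count of probe sets called for drip loss was 2 of 17 and depended on how the arrays were handled. It was 0 with title number blocks as a covariate, in the lower or the higher number series alone, with 5 principal components or the respiratory chain mean as covariates, and without the 24 low-correlation arrays with or without blocks. It was 1 without the 13 arrays lacking spike-in signal and 1 with normal scores of the trait. It was 3 with quantile normalization, with dim probe sets left out and, in an alternative chosen after seeing the data, with the adjustment over 1 probe set per gene; it was 2 in the other 5, where PRDX5 took the place of GCLC with the 3' to 5' signal difference (adjusted p = 0.046) and of NQO1 with fat area as a covariate (0.042). Of all probe sets 4.61% were called, against 0.623% with blocks, 0.823% in the lower and 0% in the higher series alone, 0.0543% with principal components, 0.831% without the low-correlation arrays, 0.355% without them and with blocks, 0.171% with the respiratory chain mean and 2.43% with the 3' to 5' signal difference. For fat area the count was 0 of 17 throughout, where 0.121% of all probe sets were called in the main limma fit. An unadjusted p under 0.05 in that fit was found for 3 of the 17 and for 1692 of all 23935. For the difference between the slopes the count of 1 became 0 in the higher series alone, with principal components and with the respiratory chain mean. The pathway count of 7 for drip loss became 0 with blocks, without the low-correlation arrays and with the respiratory chain mean, all 3 chosen after seeing the data. In these cases the cause was not tested. Over all 45 pairs of the 10 genes, GPX1 included, the median pairwise r was 0.069 to 0.15 over 10 alternatives, against 0.088. The 36 pairs without GPX1 were not put through all of these alternatives.

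Of 268 refitted slopes on drip loss 31 changed sign, and of 268 on fat area 10 did; 0 of these were called. Probe sets of 1 gene are numbered by falling mean. For drip loss, TXNRD1 probe set 2 gave 0.0029 with quantile normalization, 0.023 with blocks, 0.0052 with the series as a covariate, 0.0036 and 0.015 in the lower and higher series alone, 0.031 with principal components, 0.018 without the low-correlation arrays, 0.040 without them and with blocks, 0.020 with the 3' to 5' signal difference, 0.021 with the respiratory chain mean and 0.0026 without the 2 animals farthest from the median. SOD2 gave -0.0037 with blocks, -0.0092 in the lower series, -0.011 without the low-correlation arrays, -0.018 without them and with blocks, -0.021 with the respiratory chain mean and -0.00083 with normal scores. GCLC probe set 5 gave -0.031 in the higher series, -0.00019 without the low-correlation arrays, -0.0012 without the arrays lacking spike-in signal, -0.00034 with the respiratory chain mean and -0.0035 with fat area as a covariate, and CAT gave 0.0019 in the last of these. In the higher series GCLC probe set 3 gave -0.068 and GCLM probe set 2 -0.0026. GCLC probe set 3 gave -0.0031 with the 3' to 5' signal difference, and GCLM probe set 1 -4.3e-06 without the low-correlation arrays and with blocks. With principal components HMOX1 gave 0.025, PRDX5 -0.00016, and TXNRD1 0.010 for probe set 3 and 0.0034 for probe set 1.

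For fat area the higher series alone, with 25 pigs, gave 0.0011 for NQO1, 0.029 for HMOX1, 0.039 for TXNRD1 probe set 1, and -0.0018, 0.0016 and 0.016 for GCLC probe sets 5, 1 and 4. Principal components gave 0.0080 for TXNRD1 probe set 1 and 0.0038 for probe set 3, the lower series 0.0013 for SOD2, and leaving out the low-correlation arrays -0.00089 for PRDX5. No paired analysis was possible because the animals form 1 group. At 207 arrays, simulated slopes of 0.05 were mostly missed, so slopes of that size can go uncalled.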

Other observations

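Some of the genes most correlated with GPX1, GCLM and TXNRD1 lie near them in the genome, and others on the same chromosome lie far away. These values were looked up after the correlations were seen, with gene order from the RefSeq assembly Sscrofa11.1, and are given as a description with no test. Of the 20 genes with the highest absolute r with GPX1, 5 lie on its chromosome 13 (25%), against 6.45% of all 4883 genes compared. RHOA, a small GTPase of the cytoskeleton, is the next protein-coding gene to GPX1, with 0 between them, and MAPKAPK3, TEX264 and CCDC12 have 41, 47 and 54 protein-coding genes between them and GPX1. The fifth, the integrin gene ITGB2, has 1011 between. Within the main body of arrays by GPX1 value, r with GPX1 was 0.30 for RHOA, 0.31 for MAPKAPK3, 0.17 for TEX264, 0.34 for ITGB2 and -0.41 for CCDC12.

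Of the 20 genes nearest in pattern to GCLM, 4 lie on chromosome 4 (20%, against 5.86% of all). The first of them, BCAR3, an adaptor of cell adhesion signalling, has 1 protein-coding gene between it and GCLM; r was 0.54, and 0.56 without the low-correlation arrays. RWDD3, with 8 genes between, had r = 0.42, and 0.37 without those arrays, while UFC1 and COPS5 lie far off, COPS5 with 696 genes between. For TXNRD1 3 of 20 lie on chromosome 5 (15.0%, against 5.39%), among them HSP90B1 with 6 genes between and r = 0.72, and 0.61 without those arrays; CCT2 and RAP1B lie far off, RAP1B with 401 between. For PRDX5 4 of 20 lie on chromosome 2 (20%, against 9.97%): FAU with 28 genes between and r = 0.66, MRPL11 with 85, C2H19orf70 with 1067 and TIMM13 with 1148. For NQO1, GCLC, SOD1, SOD2 and CAT the share of the 20 on the gene's own chromosome was 10.0%, 0%, 10.0%, 15.0% and 10.0%, against 9.60%, 7.13%, 6.45%, 7.91% and 9.97% of all genes.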
